A study of Mus musculus with 10 samples.

Results

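PAR1-/- bladders were compared with WT bladders on 8 of the 10 arrays of the series, chosen as the arrays of challenged bladders that form pairs matched on stimulus and time. The 4 PAR1-/- arrays and the 4 WT arrays covered LPS at 4 h, LPS at 24 h, SP at 4 h and SP at 24 h, and the 2 saline arrays were left out of the tests. LPS is the outer membrane lipopolysaccharide of Escherichia coli, and SP is substance P, a neuropeptide of sensory nerves. Every array was hybridized with 33P-labelled cDNA from 1 pool of 8 bladders of female mice, with no replicate of any condition, so the 4 pairs served as replicates of the genotype difference across different challenges. The PAR1-/- mice lack the thrombin receptor PAR1 (gene F2r) in all cells and had been enriched on the C57BL/6J background, and WT mice were C57BL/6J. LPS was instilled into the bladder at 100 μg/ml in both genotypes. For SP the sample labels give 20 μM for the PAR1-/- arrays and 10 μM for the WT arrays, whereas the methods give a single dose, so in the SP pairs dose and genotype cannot be told apart.

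PAR1 belongs to a family of G-protein-coupled receptors that are switched on when a serine protease such as thrombin cuts their extracellular end and unmasks a tethered ligand. It signals through several classes of G protein to calcium, protein kinase C and MAP kinases, and activated receptors are taken up and sorted to lysosomes. In the bladder, PARs are present on urothelium, smooth muscle, nerves and endothelium, and PAR1 is known as a mediator of inflammation of the bladder wall. In a bulk pool of whole bladder, fewer cells of a type and less RNA per cell cannot be told apart.

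The signal limits what can be read. The files hold scores standardized per probe, from which whole-number spot intensities were recovered for 4944 of 5030 probes. On 7 of the 8 arrays 36.7 to 47.9% of these lay above background, against 12.4% on the WT LPS array at 24 h, where 4319 probes held the value 15 and the next value was 29. After normalization, values under 23.6 were set to that floor, and the 1433 probes above it on at least 4 of the 8 arrays were tested. A difference with one side at the floor is therefore a lower limit of its size. The naming of the probes is uncertain. For 34 pairs of probes named for the same gene the median correlation over the 8 arrays was 0.085, and their levels differed by a median of 1.58-fold and by up to 6.81-fold. These pairs were not limited to probes tested. They include control probes of Ywhaz, Rps29, Gapdh and Actb that were never above the floor, so weak signal and wrong naming cannot be told apart here. The bladder markers Upk2 and Actg2 were above the floor on 1 and 2 of 8 arrays, Acta2 on 7, Myh11 on 6 and Tagln on 5. Gene names below are those given with the probes.

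F2r, the disrupted gene, was at the floor on most arrays of both genotypes. Its intensities before normalization on the PAR1-/- arrays were 17 (LPS 4 h), 18 (LPS 24 h), 51 (SP 4 h) and 21 (SP 24 h). On the WT arrays they were 195 (LPS 4 h), 15 (LPS 24 h), 22 (SP 4 h) and 11 (SP 24 h). Only the WT array of LPS at 4 h stood clearly out, and the groups overlapped. After the floor was set 2 of the 4 pairs had a difference of 0, so no test is given on those values. Before it was set, the mean log2 difference was -0.57 (n = 4 pairs; exact two-sided sign-flip permutation test, p = 1, with 0.125 the smallest p that 4 pairs allow). Which stretch of the transcript the probe covers is unknown here, and the genotype labels therefore cannot be checked with F2r. Of the other receptors, F2rl2 and F2rl3 (PAR3 and PAR4) were above the floor on the WT LPS array at 4 h alone, at 25.5 and 24.3.

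Of the proteases and coagulation factors that act on or around PARs, 8 probes were tested, and none differed between PAR1-/- and WT bladders over the 4 pairs (adjusted p from 0.691 to 0.991). F3, tissue factor, which starts coagulation, had 146, 254, 205 and 187 on the PAR1-/- arrays (LPS 4 h, LPS 24 h, SP 4 h, SP 24 h, in this order here and below), against 111, 256, 129 and 240 on the WT arrays. Plau, urokinase, had 162, 132, 117 and 170 on the PAR1-/- arrays and 111, 205, 122 and 127 on the WT arrays. For both genes the ranges of the genotypes overlapped. Thbd, thrombomodulin, the endothelial cofactor that turns thrombin to protein C activation, had 42.3, 40.7, 70.8 and 49.8 on the PAR1-/- arrays, against 42.9, 39.1, 61.6 and 103 on the WT arrays. F2, prothrombin, was lower in PAR1-/- bladders in both 4 h pairs and not in the 24 h pairs, with 112, 89.5, 83.3 and 91.9 on the PAR1-/- arrays, against 174, 23.6, 206 and 86.3 on the WT arrays. In the fit of the 4 h pairs alone, which is described below, F2 was called lower (adjusted p = 0.0416, or 0.391 with the spread of all 4 pairs). It was 1 of the 8 probes, where 7.82% of all probes tested were called lower at 4 h.

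Over the 4 pairs, no gene differed between PAR1-/- and WT bladders at an adjusted p of 0.05. Of 1433 probes, 0 were called higher (0%) and 0 lower (0%) in PAR1-/- bladders with limma, the lowest adjusted p was 0.18, and 170 probes had an unadjusted p under 0.05, 121 of them higher and 49 lower in PAR1-/- bladders. In all 4 pairs 198 probes (13.8%) were higher and 50 (3.49%) lower in PAR1-/- bladders. For 109 probes (7.61%) every PAR1-/- array lay above every WT array, and for 24 (1.67%) every PAR1-/- array lay below. The median differences of the 24 h pairs were above 0 over all probes tested and nearer 0 over the probes above the floor on both arrays of a pair. That of the LPS 24 h pair was 0.36 over all probes tested, where 603 probes were above the floor on the WT array and 1321 on the PAR1-/- array, and -0.01 over the 569 probes above the floor on both. That of the SP 24 h pair was 0.14 over all probes tested and 0.02 over the 1032 above the floor on both.

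The probes with the highest moderated t and the same direction in all 4 pairs are given as values that did not pass the test (adjusted p from 0.18 to 0.203 for the 10 highest). Without the pair as a block 9 probes were called higher, among them Ccl11, Cdc37, Cdh1, Tnfrsf18, Foxb2 and Resp18. Ccl11, the eosinophil chemokine eotaxin, had 58.3, 90.4, 68.1 and 63.8 on the PAR1-/- arrays. On the WT arrays it had 27.8 after LPS at 4 h and lay at the floor on the others, a log2 difference of 1.49. It passed the filter through the 4 PAR1-/- arrays, so its rank and its calls here and below are given as values only. Cdc37, the co-chaperone that brings kinases to Hsp90, had 84.8, 177, 129 and 131 on the PAR1-/- arrays and 46.4, 55.2, 41.2 and 55.4 on the WT arrays. Neither gene overlapped between the genotypes, and neither did any other of these 10 probes. Their choice by a high t and the same direction in all 4 pairs favours this, and 7.61% of all probes tested lay apart in this direction. Cdh1, the epithelial junction protein E-cadherin, had 59.2, 75.2, 62.9 and 84.3 on the PAR1-/- arrays, against 32.4, 34.9, 23.6 and 27.9 on the WT arrays, a log2 difference of 1.25 (SE 0.231). Tnfrsf18, the T-cell costimulatory receptor GITR, had the largest difference of the 10, 1.86 (SE 0.349), with 112, 199, 110 and 189 on the PAR1-/- arrays, against 48.8, 23.6, 43.6 and 52.5 on the WT arrays. Itgb3, the integrin subunit of platelets and angiogenic endothelium, had 183, 166, 172 and 187 on the PAR1-/- arrays, against 115, 58.2, 60.4 and 92.8 on the WT arrays. Masp1, a protease of the lectin pathway of complement, had 161, 196, 170 and 177 on the PAR1-/- arrays, against 83.4, 114, 78.0 and 83.1 on the WT arrays. For Itgb3 and Masp1 the 4 PAR1-/- arrays lay close to each other. Foxb2, Resp18, Slc6a20b and Gdap1 had differences of 1.15, 1.10, 1.10 and 1.09.

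The 10 probes with the lowest t had adjusted p from 0.203 to 0.251. For 7 of them, chosen in the same way, the genotypes did not overlap, and 1.67% of all probes tested lay apart in this direction. Spry4, which restrains MAP kinase signalling from growth factor receptors, had 23.6, 25.9, 23.6 and 32.7 on the PAR1-/- arrays, against 44.1, 75.3, 61.6 and 52.5 on the WT arrays, a log2 difference of -1.13 (SE 0.245). Anxa5, the phosphatidylserine-binding protein annexin A5, had 33.6, 23.6, 23.6 and 35.5 on the PAR1-/- arrays. Its WT arrays gave 104, 102, 108 and 38.4, so the SP 24 h pair differed little. Trpc6, a cation channel opened by diacylglycerol, had 293, 278, 287 and 280 on the PAR1-/- arrays, against 923, 628, 349 and 729 on the WT arrays. The size of this difference followed the scaling, since the mean of -1.12 was -0.39 with quantile normalization and -0.04 with no normalization. It was -0.02 on the deposited scores, which are standardized per probe, so that its size there is in another unit. Sin3a, scaffold of a transcriptional co-repressor, had 98.2, 86.8, 66.8 and 120 on the PAR1-/- arrays, against 332, 154, 304 and 152 on the WT arrays. Dcc, the netrin receptor, and Zfp40, a zinc finger protein, had differences of -1.31 (SE 0.288) and -1.35 (SE 0.379). Dlg3, Dll3, Prl4a1 and Clcn7 had differences of -1.14, -1.42, -0.85 and -1.03, and of these 4 only Clcn7 did not overlap between the genotypes. Before normalization every one of these 10 probes but Clcn7 was higher in PAR1-/- bladders in the SP 24 h pair. Spry4 had 33 against 23 there, and Sin3a 135 against 53. Their same direction in all 4 pairs thus depends on the scaling.

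**Figure D1:**
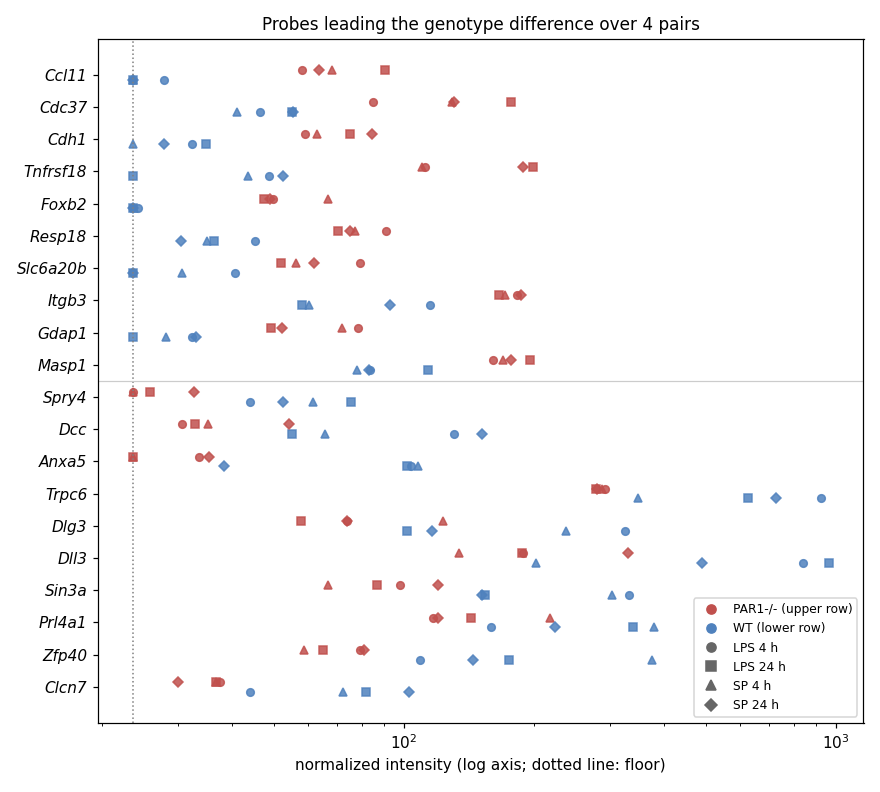
Normalized intensity (horizontal log axis) of the 20 probes with the highest (upper 10) and lowest (lower 10) moderated t among those with the same direction in all 4 pairs. Each point is 1 array, PAR1-/- in red in the upper row of each gene and WT in blue in the lower row, with the challenge given by the marker shape and the floor of 23.6 as a dotted line. The red points of Trpc6 lie between 278 and 293 and its blue points between 349 and 923.

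In single pairs, more probes were far higher in PAR1-/- bladders at 24 h than at 4 h. The numbers of far lower probes lay between 34 and 44 in the 4 pairs, but without normalization between arrays they were 27 (LPS) and 28 (SP) at 4 h, and 14 (LPS) and 0 (SP) at 24 h. More than 3-fold higher in PAR1-/- bladders were 6 probes (0.419%) after LPS and 7 (0.488%) after SP at 4 h, and 74 (5.16%) after LPS and 42 (2.93%) after SP at 24 h. More than 3-fold lower were 44 (3.07%) after LPS and 34 (2.37%) after SP at 4 h, and 36 (2.51%) after LPS and 35 (2.44%) after SP at 24 h. With 1 array per genotype in a pair these counts carry no test. Both 4 h pairs shared 14 probes more than 3-fold lower and 0 more than 3-fold higher in PAR1-/- bladders, and the 24 h pairs shared 1 lower and 14 higher. The SD of the log2 difference over probes was 0.676 and 0.673 in the LPS and SP pairs of 4 h, and 0.825 and 0.791 in those of 24 h.

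**Figure D2:**
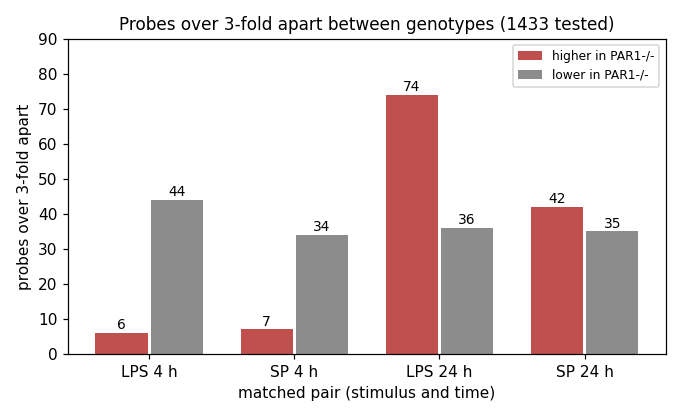
Number of the 1433 probes tested (vertical axis) that lay more than 3-fold higher (red) or lower (grey) on the PAR1-/- array than on the WT array of each matched pair (horizontal axis). At 4 h the lower bars (44 and 34) stand above the higher bars (6 and 7), and for LPS at 24 h the higher bar (74) includes probes held at the floor on the WT array.

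The genotype differences were alike for LPS and SP at the same time and unlike between the times. Across probes, the differences of the LPS and SP pairs correlated with r = 0.499 at 4 h and r = 0.37 at 24 h, whereas between a 4 h pair and a 24 h pair r lay between -0.00674 and 0.0677. Over the 513 probes above the floor on all 8 arrays r was 0.526 at 4 h, 0.398 at 24 h and at most 0.026 between the times. These values are descriptions over 1433 probes, which are not independent, and no 2 pairs share an array, although all 8 arrays share the normalization. Row, column and sub-position on the array took up at most 1.22% of the variance of a pair's differences, and after their removal r was 0.5 at 4 h and 0.371 at 24 h. Whether LPS and SP arrays of one time and genotype were hybridized together is not stated, so such a batch was not tested.

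**Figure D3:**
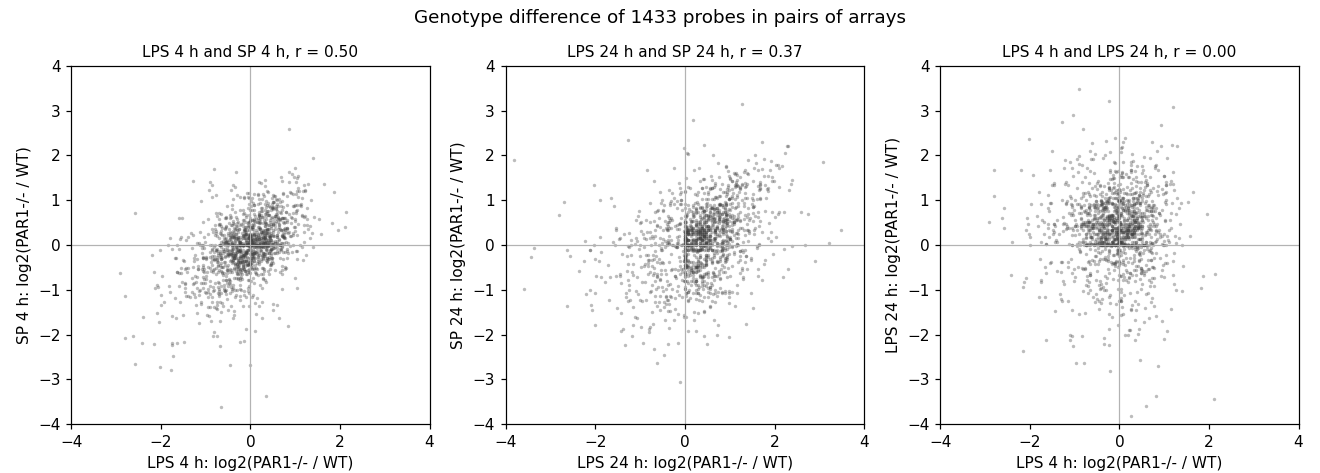
Log2 difference between PAR1-/- and WT in one pair (horizontal axis) against that in another (vertical axis), with each point 1 of 1433 probes. The LPS and SP pairs of 4 h (left, r = 0.499) and of 24 h (middle, r = 0.37) run together, and the LPS pairs of 4 h and 24 h (right) do not.

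The 4 PAR1-/- arrays resembled each other whatever the stimulus and time, and the WT arrays fell apart by time. Between PAR1-/- arrays r of the log2 intensities ranged from 0.779 to 0.876. Between WT arrays r was 0.828 for LPS and SP at 4 h and 0.744 for LPS and SP at 24 h, but 0.551 to 0.668 across times. A PAR1-/- array and a WT array correlated with 0.622 to 0.752. On the WT LPS array at 24 h 603 of the 1433 probes were above the floor, and over the 513 probes above it on all 8 arrays the PAR1-/- arrays correlated with 0.801 to 0.894, the WT arrays of the same time with 0.811 (4 h) and 0.702 (24 h), and the WT arrays of different times with 0.413 to 0.552. Within a genotype, the change between the times was alike with LPS and SP in WT bladders (r = 0.503 across probes), and unlike in PAR1-/- bladders (r = 0.00871). For 1099 probes (76.7%) the SD over the 4 WT arrays exceeded that over the 4 PAR1-/- arrays, with a median SD of 0.256 over the PAR1-/- arrays and 0.461 over the WT arrays on the log2 scale. Without normalization between arrays the share was 59.0%, with median SDs of 0.506 over the PAR1-/- arrays and 0.628 over the WT arrays. The WT arrays of 24 h had the lowest total intensities of the 8, 111684 (LPS) and 72191 (SP). Their slopes in the regression used to normalize were 0.814 and 0.786, against 0.962 to 1.11 on the other arrays. What part this has in the split of the WT arrays by time and in their SDs was not tested.

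**Figure D4:**
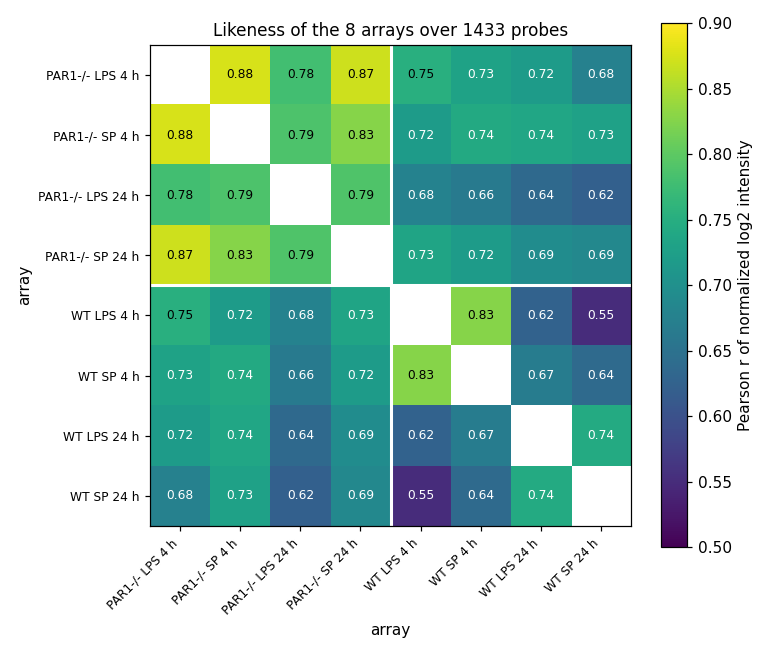
Pearson correlation (colour and number) of the normalized log2 intensities of each array (rows) with each other array (columns) over the 1433 probes tested, PAR1-/- arrays first. The PAR1-/- block lies between 0.779 and 0.876, and the WT block holds high values only for arrays of the same time.

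Tested probe by probe, neither dependence passed. The genotype difference at 24 h minus that at 4 h was called for 0 probes (0% positive, 0% negative) with limma, with a lowest adjusted p of 0.238 and 221 probes at an unadjusted p under 0.05. This count depended on the processing, and was 78 with a shift to equal medians, 65 with each array's own floor, 30 with the background subtracted and 8 with no floor. The difference with LPS minus that with SP was called for 0 probes (0% positive, 0% negative), with 34 at an unadjusted p under 0.05 and a lowest adjusted p of 0.972. Tie1, an endothelial receptor tyrosine kinase and the only 1 of 13 endothelium probes tested, had differences of 0.62 (LPS 4 h), 1.34 (LPS 24 h), 0.29 (SP 4 h) and 1.39 (SP 24 h). These were higher in PAR1-/- bladders and larger at 24 h with both stimuli, but the dependence of Tie1 on time did not pass (limma, unadjusted p = 0.0811, adjusted p = 0.367).

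Each time was also fitted alone, on its 2 pairs. At 4 h 43 probes (3%) were called higher and 112 (7.82%) lower in PAR1-/- bladders, and at 24 h 0 higher (0%) and 0 lower (0%), with 246 at an unadjusted p under 0.05. In the fit of the 4 h pairs limma gave every probe the same variance, so the calls amount to a mean difference of at least 0.944 on the log2 scale, or 1.92-fold, and 2 of the 155 called probes did not have the same direction in both pairs. When the spread of all 4 pairs was pooled, 0 probes were called at 4 h (lowest adjusted p 0.0606, 218 at an unadjusted p under 0.05). Over the other settings tried the number of 4 h calls ran from 0 to 168. The 155 probes are thus described here by their levels, and an adjusted p under 0.05 below is that of the 4 h pairs alone. The 112 lower probes had median levels of 41.8 and 40.6 on the PAR1-/- arrays of LPS and SP at 4 h, against 114 and 105 on the WT arrays. At 24 h their medians were 44.5 and 49.4 on the PAR1-/- arrays, against 23.6 and 38.4 on the WT arrays. For 106 of the 112 the highest value of all 8 arrays was on a WT array of 4 h, one of the arrays on which they were called. In both 24 h pairs 17 of the 112 (15.2%) were lower in PAR1-/- bladders, against 13.3% of all probes tested, and 59 (52.7%) were higher, against 46.9% of all. Of the 43 higher probes 26 (60.5%) were higher in both 24 h pairs, against the same 46.9%. The shares of the 112 lie near those of all probes.

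Of the 11 interferon and antigen presentation probes tested, 2 were called lower (Irf1 and Psme1) and 1 higher (Psmb10) at 4 h, with a median of -0.07, and of the 6 immediate early genes 2 were lower (Ccn1 and Egr3) and 0 higher, with 3 members positive and 3 negative, where 7.82% of all probes were lower and 3% higher. Irf1, the transcription factor interferon regulatory factor 1, had 35.6 and 32.0 on the PAR1-/- arrays of LPS and SP at 4 h, against 159 and 149 on the WT arrays. Its log2 difference was -2.19 (n = 2 pairs, adjusted p = 2.7e-08, or 0.077 with the spread of all 4 pairs). The SE of 0.338 is that of every probe in the fit of the 4 h pairs. It and the adjusted p values of that fit do not measure how well the 2 pairs of a gene agree. At 24 h Irf1 had 36.8 and 48.9 on the PAR1-/- arrays, against 70.6 and 41.2 on the WT arrays. Gbp2b, an interferon-induced GTPase, had 46.1 and 33.9 on the PAR1-/- arrays of 4 h, against 72.6 and 414 on the WT arrays, so its difference rested mainly on SP (adjusted p = 6.67e-08; 0.207 with the spread of all 4 pairs). Psme1, an interferon-inducible activator of the proteasome, had 69.3 and 45.9 on the PAR1-/- arrays of 4 h and 219 and 142 on the WT arrays (adjusted p = 8.36e-05; 0.135 with the spread of all 4 pairs). The immunoproteasome subunit Psmb10 went the other way, with 168 and 168 on the PAR1-/- arrays of 4 h, against 47.6 and 119 on the WT arrays (adjusted p = 0.0109; 0.23 with the spread of all 4 pairs). Ccn1, a matricellular early-response protein, had 67.5 and 51.3 on the PAR1-/- arrays of 4 h and 279 and 169 on the WT arrays, a log2 difference of -1.88 (adjusted p = 2.94e-06; 0.0688 with the spread of all 4 pairs). Egr3, an early-response transcription factor, had 56.4 and 64.2 on the PAR1-/- arrays of 4 h, against 195 and 132 on the WT arrays. On the 24 h arrays Ccn1 had 55.9 and 83.5 in PAR1-/- bladders, against 40.5 and 41.2 in WT bladders. Elk4, a partner of serum response factor that was chosen after its values were seen, had 106 and 67.3 on the PAR1-/- arrays of 4 h, against 739 and 148 on the WT arrays. E2f1, a transcription factor of S phase entry, had 44.2 and 38.5 on the PAR1-/- arrays of 4 h, against 149 and 115 on the WT arrays.

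The largest 4 h difference in the lower direction was that of Grb7, an adaptor of receptor tyrosine kinases, which lay at the floor on both PAR1-/- arrays of 4 h, against 141 and 149 on the WT arrays. Its PAR1-/- level was thus at least 6.13-fold lower (adjusted p = 2.8e-11; 0.0606 with the spread of all 4 pairs). At 24 h Grb7 had 30.9 and 30.9 on the PAR1-/- arrays and was at the floor on the WT arrays. Stap1, an adaptor of lymphocyte signalling, had 48.9 and 24.9 on the PAR1-/- arrays of 4 h and 302 and 101 on the WT arrays. Acin1, a nuclear protein of apoptosis and splicing, had 53.6 and 37.1 on the PAR1-/- arrays of 4 h, against 217 and 245 on the WT arrays. At 24 h the order of Acin1 was turned round, with 122 and 72.4 on the PAR1-/- arrays and 23.6 and 27.9 on the WT arrays. Sag, Pspn, Pcmt1 and the ribosomal proteins Rpl30 and Rps29 completed the 10, with differences of -2.43, -2.29, -2.10, -1.99 and -2.31. Rps29 has 3 probes, and the other 2 were at or near the floor on all 8 arrays, with a highest level of 27.2, so the 3 probes disagree. In the higher direction Ppp1r17, Serinc3 and Rdx (radixin, which ties actin to the membrane) led with 1.72, 1.66 and 1.36. Ppp1r17 had 181 and 195 on the PAR1-/- arrays of 4 h, against 99.1 and 32.5 on the WT arrays. Rdx had 97.3 and 147 on the PAR1-/- arrays of 4 h, against 48.8 and 44.2 on the WT arrays, and 55.0 and 23.6 at 24 h on the PAR1-/- arrays, against 55.2 and 23.6 on the WT arrays. The rest of these 10 were Gdap1, Ccl11, Foxb2, Tnfrsf18, Cdc37, Tnnt3 and Myom2. The first 5 of them also lead the comparison over 4 pairs, which contains the same 4 h pairs and so is not independent.

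**Figure D5:**
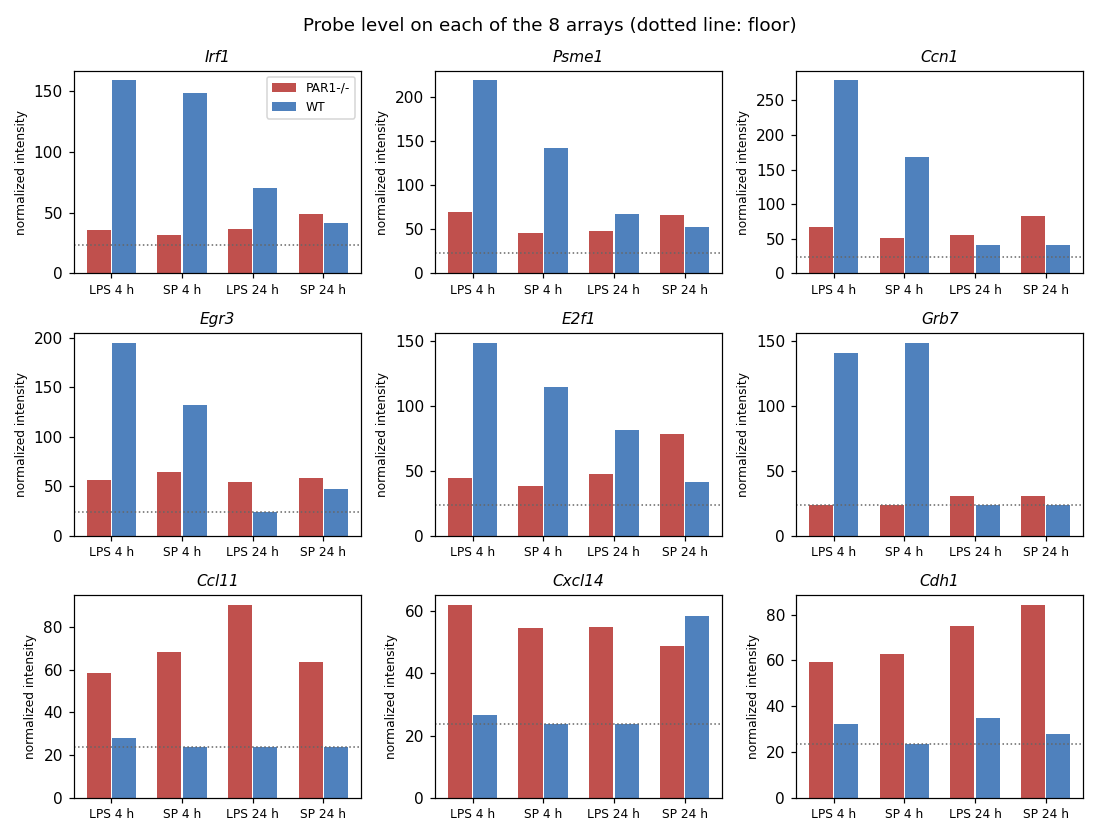
Normalized intensity (vertical axis, from 0) of 9 genes on the 8 arrays, with PAR1-/- in red and WT in blue for each challenge (horizontal axis) and the floor as a dotted line. Each bar is 1 array, so there are no error bars. Irf1, Psme1, Ccn1, Egr3, E2f1 and Grb7 have their highest bars on the WT arrays of 4 h, and the PAR1-/- bars of Ccl11, Cxcl14 and Cdh1 lie between 48.9 and 90.4.

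Of the 19 lists of pathways and functions, none had a member called over the 4 pairs. The lists are given by their medians beside the median of all probes tested, which was 0.07 over 4 pairs, -0.02 at 4 h and 0.24 at 24 h. Calls of list members at 4 h stand beside the shares of all probes tested, 3% called higher and 7.82% lower. For PAR1 signalling (G protein subunits, phospholipase C, protein kinase C, MAP kinases and others) 7 of 24 probes were tested, 2 of them positive, with a median of -0.08. Prkcd, a protein kinase C, had 119, 116, 79.9 and 102 on the PAR1-/- arrays, against 112, 117, 144 and 120 on the WT arrays, close to each other in 3 of 4 pairs. For PAR trafficking 4 of 16 were tested, and Snx1, the sorting nexin that carries PAR1 to lysosomes, had 164, 120, 123 and 119 on the PAR1-/- arrays, against 387, 85.0, 276 and 61.4 on the WT arrays. Snx1 was called lower at 4 h (adjusted p = 0.00771; 0.159 with the spread of all 4 pairs). Of 11 chemokine and receptor probes tested 9 were positive over the 4 pairs (median 0.28), where 57.6% of all probes tested were. At 4 h Ccl11 and Cxcl14 were called higher and Ccl22 lower, 2 and 1 of the 11 probes, against 3% and 7.82% of all probes tested. The adjusted p of Cxcl14, an epithelial chemokine, at 4 h was 0.00717 (0.235 with the spread of all 4 pairs), and it had 62.0, 55.0, 54.4 and 48.9 on the PAR1-/- arrays, against 26.6, 23.6, 23.6 and 58.4 on the WT arrays. Without normalization between arrays 83.4% of all probes tested were positive, so these shares follow the scaling. For NF-kB and acute cytokines 7 of 31 were tested and Irf1 alone was called at 4 h. Tnf had 91.1, 49.3, 67.7 and 73.3 on the PAR1-/- arrays and 39.4, 89.9, 43.0 and 49.6 on the WT arrays, higher in PAR1-/- bladders in 3 of 4 pairs. For LPS and SP sensing none of 6 tested was called at 4 h. Myd88, the adaptor of Toll-like receptors, had 127, 132, 145 and 169 on the PAR1-/- arrays, against 153, 126, 206 and 41.2 on the WT arrays.

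Of 18 chaperone and oxidative stress probes tested, 5 were called lower at 4 h and 0 higher, where 7.82% of all probes were lower, with a median of -0.18 at 4 h and -0.06 at 24 h. They were the chaperonin subunit Cct8, the small heat shock protein Cryab, the immunophilins Fkbp1a and Ppia, and Gpx4, the glutathione peroxidase that reduces lipid peroxides. Gpx4 had 24.8, 30.9, 24.4 and 27.2 on the PAR1-/- arrays, near the floor, against 75, 23.6, 46.1 and 64.4 on the WT arrays. Of 15 ribosomal and translation probes 3 were lower at 4 h (Eif3a, Rpl30 and Rps29), and of 11 ubiquitin and proteasome probes 1 was (Psma7). Psma7 had 57.3 and 28.7 on the PAR1-/- arrays of 4 h, against 171 and 69.8 on the WT arrays. Among integrins, 1 of 6 tested was higher at 4 h (Itgb3) and 1 lower (Vcl, vinculin of focal adhesions). Vcl had 27.7, 23.8, 49.0 and 27.2 on the PAR1-/- arrays, against 53.5, 23.6, 101 and 83.1 on the WT arrays. Among extracellular matrix genes Col5a2, a fibrillar collagen chain, had 48.9, 44.5, 43.6 and 45.4 on the PAR1-/- arrays and lay at the floor on all 4 WT arrays, so that it passed the filter only through the PAR1-/- arrays, and no test is given. Of the 75 transcripts that the study itself called PAR1-dependent on these samples, which makes them no independent evidence, 26 probes were tested. Over the 4 pairs 17 were positive and 9 negative with a median of 0.10, and at 4 h Fkbp1a, Ppia and Rps29 were called lower and 0 higher, 3 of 26 probes where 7.82% of all probes tested were lower and 3% higher.

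Of the markers of cells in the bladder wall, 0 of 40 probes tested from 12 lists of cell types were called over the 4 pairs. At 4 h 4 of the 40 (10%) were called, against 10.8% of all probes tested, Cdh1 and Tnnt3 higher and Epx and Cd22 lower in PAR1-/- bladders. Tnni2, a skeletal muscle troponin as Tnnt3 is, had a mean difference of -0.73 over the 4 pairs, against 1.37 for Tnnt3. Epx, eosinophil peroxidase, had 73.9, 102, 69.5 and 55.1 on the PAR1-/- arrays, against 209, 23.6, 207 and 33.1 on the WT arrays. The summed level of the 14 granulocyte probes ranged from 363.6 to 415.7 on the PAR1-/- arrays and from 330.3 to 535.6 on the WT arrays, and 7 of the 14 were never above the floor. For the 16 urothelium probes the sum ranged from 523.5 to 608.3 on the PAR1-/- arrays and from 460.8 to 502.6 on the WT arrays. These ranges did not overlap, whereas those of every other list of the 12 did, and 10 of the 16 probes were never above the floor. The urothelium sum includes Cdh1, named above for its high t, and was not taken without it. Of all single probes tested, 7.61% lay apart in this direction, so this is not read as a trait of urothelium. Of the 4 urothelium probes tested 3 were positive and 1 negative over the 4 pairs. Cldn3, a tight junction protein, had 106, 166, 116 and 119 on the PAR1-/- arrays, against 83.4, 131, 94.0 and 106 on the WT arrays. Krt19, the negative one, had a mean difference of -0.17, with levels near the floor. Krt13 had differences of 1.2 (LPS 4 h), 1.36 (LPS 24 h), 0.07 (SP 4 h) and -0.25 (SP 24 h). For the 9 smooth muscle probes the sum ranged from 280.0 to 402.4 on the PAR1-/- arrays and from 285.4 to 475 on the WT arrays. Of the 5 smooth muscle probes tested 4 were positive and 1 negative over the 4 pairs. Myh11, smooth muscle myosin, had 66.6, 53.1, 57.1 and 60.3 on the PAR1-/- arrays, against 67.8, 23.6, 51.5 and 23.6 on the WT arrays. Acta2, smooth muscle actin and the negative one, had 142, 124, 23.6 and 133 on the PAR1-/- arrays and 234, 215, 45.5 and 120 on the WT arrays. Cpa3, a mast cell protease, was bright and close to equal, with 368, 418, 292 and 388 on the PAR1-/- arrays, against 437, 521, 369 and 448 on the WT arrays, and the sign of its difference flipped under other scalings. Gzmb, a granzyme of cytotoxic lymphocytes, had 126, 135, 91.9 and 113 on the PAR1-/- arrays, against 75, 72.1, 81.4 and 49.6 on the WT arrays. Pdgfra, a receptor of fibroblasts, had 75.7, 62.4, 63.8 and 87.7 on the PAR1-/- arrays, against 57.1, 23.6, 35.0 and 49.6 on the WT arrays. Fbln2, a matrix protein of the same list of fibroblast genes, was lower in PAR1-/- bladders in 3 of 4 pairs, with 200, 240.0, 216 and 193 on the PAR1-/- arrays, against 190.0, 323, 310.0 and 425 on the WT arrays, and Vim, vimentin, had a mean difference of 0.01. The adjusted p over the 4 pairs were 0.644 for Cpa3, 0.3 for Gzmb, 0.251 for Pdgfra and 0.517 for Fbln2. The part of differences in cell content in the results above was not tested.

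The unchallenged bladders, compared in a single pair of saline arrays, gave a smaller difference between the genotypes. Both saline arrays were of 24 h, so they match the 4 h pairs less well. Their total intensities were 68304 (PAR1-/-) and 71021 (WT), against 72191 to 259400 on the challenged arrays. What part this weaker signal has in the smaller difference was not tested. With the 10 arrays normalized together, the SD of the log2 difference over 1465 probes was 0.503 in the saline pair and 0.625 to 0.743 in the challenged pairs. In the saline pair 14 probes were more than 3-fold higher and 9 more than 3-fold lower in PAR1-/- bladders. The saline difference correlated across probes with r = -0.167 and -0.088 with the LPS and SP pairs of 4 h, and with 0.175 and 0.122 with those of 24 h. The 112 probes lower at 4 h had a median saline difference of 0.08 and the 43 higher ones of -0.20. Irf1 had intensities of 26 on the PAR1-/- saline array and 19 on the WT saline array, and Ccn1 of 18 and 19.

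The genes called lower in PAR1-/- bladders at 4 h form a group by that call alone. Their promoters were read from RefSeq (GRCm38.p6), as the 250 bases before the gene start, and searched on both strands for short motifs of early-response factors. Of 78 such genes with a promoter, 2 (2.56%) held the AP-1 motif TGACTCA, against 4.55% of 1032 genes tested, and 3 (3.85%) held the CRE motif TGACGTCA, against 2.52%. The EGR motif GCGTGGGCG was in 1 (1.28%), against 1.07%. The GAS motif TTCCCGGAA was in 0, against 0.388%. None of these motifs contains another. These shares lie near those of all genes tested, and a match is only a match of letters. The stretches with the CRE motif in capitals are shown as the genes of this group that share 8 bases.
Gzmc (granzyme C, chr14:56234687-56234734, minus strand): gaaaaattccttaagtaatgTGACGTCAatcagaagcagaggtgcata
Rab25 (an epithelial Rab GTPase, chr3:88548337-88548384, minus strand): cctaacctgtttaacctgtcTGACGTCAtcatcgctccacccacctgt
Snrpa (a U1 spliceosomal protein, chr7:27196357-27196404, minus strand): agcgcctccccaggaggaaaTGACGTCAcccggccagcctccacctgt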

How the data were processed

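RNA pools of 8 bladders were hybridized to plastic arrays of 5030 probes, and the authors read the spots with BD AtlasImage 2.7 and normalized genes above background by robust linear regression. The deposited values are a score per probe and array, standardized for each probe over the 10 arrays, and depth is not defined for them. The analysis had been planned for intensities, and whole-number intensities were recovered from the spacing of the scores for 4944 probes (86 were not). Of these, 4551 had 1 gene name, 5 several and 388 none, and 12 probes with the value 9 on the WT LPS array at 24 h may be off by a factor. Each array was regressed on the mean of the 8 arrays over 539 probes above background on all of them (rlm, MASS 7.3.60.0.1, R 4.3.3), values under a common floor of 23.6 were set to it, and log2 values were taken. A probe was tested if it was above the floor on at least 4 of 8 arrays (1433 probes), and 2324 were never above it.

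The genotype difference was fitted with limma 3.58.1 with the pair as a block, with Benjamini-Hochberg adjustment over all probes tested and a threshold of 0.05. The pairs are arrays matched on stimulus and time, each from its own mice, and p-values measure the spread of the difference over challenges, not over mice. The interactions with time and stimulus and each time alone were also fitted. The fits of single times had been planned as alternatives of the fit over 4 pairs, and were made results of their own after the data were seen. The steps were tested on simulated data. Genes named are the 10 highest and 10 lowest moderated t with the same direction in all pairs, PAR and coagulation genes, up to 4 leading members of each list, bladder markers, and, chosen after their values were seen, the 10 largest 4 h differences in each direction and further members of the lists called at 4 h. The arrays compared and the gene lists were chosen with earlier results of these data known. Alternatives varied the floor, normalization, background, filter, values, prior variance, block and pairs left out.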

Additional observations from a re-analysis of the deposited data

Results flagged for a closer look

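Of 164 groups of 4 arrays examined, 14 had 1 array far from the other 3 (by Dixon's test at the 95% level), where chance gives about 1 in 20. The values here are normalized intensities before the floor was set. On the PAR1-/- arrays, Foxb2 had 66.8 after SP at 4 h, against 47.4 to 49.9 on the others, and Clcn7 had 30.0 after SP at 24 h, against 36.7 to 37.5. After LPS at 4 h the PAR1-/- array stood apart for Serpinc1 (31.7, others 24.9 to 25.9), Rpl30 (106, others 44.5 to 49.0) and Snx1 (164, others 119 to 123). Ppp1r17 had 41.7 on the PAR1-/- array of LPS at 24 h, against 181 to 195 on the other PAR1-/- arrays.

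On the WT arrays, F2r had 235 after LPS at 4 h, against 14.3 to 20.5 on the others, and Anxa5 had 38.4 after SP at 24 h, against 102 to 108. Rdx had 13.7 on the WT SP array at 24 h, against 44.2 to 55.2. On the WT LPS array at 24 h, Tnfrsf18, Foxb2 and Prss2 each had 14.3, against 43.6 to 52.5, 23.0 to 24.3 and 35.9 to 41.2 on the other WT arrays, and 4319 probes held the value 15, against 117 to 412. The total intensity of the PAR1-/- array of SP at 4 h was 259400, against 143767 to 153123 on the other PAR1-/- arrays.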

How the results depend on the processing

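The precision is limited by 1 array per condition, by pooled bladders and by the weak signal of the WT array of LPS at 24 h. Over the 4 pairs, leaving out any pair gave 0 to 0 probes called higher and 0 to 0 lower. Probes called higher were 2 with each array's own floor, 9 without the replicate block and 43 with the 4 h pairs only, and probes called lower were 112 with the 4 h pairs only. Without the replicate block 0 were called lower, and the interactions and single times were not refitted without it. The number whose difference depended on time was 65 with each array's own floor, 8 with no floor, 78 with a shift to equal medians and 30 with the background subtracted. The number that depended on stimulus was 1 with each array's own floor, 1 with the shift and 3 on the deposited scores. These interactions could not be fitted without a pair, and the 4 h fit without 1 pair has no residual degrees of freedom.

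The alternatives of the fits of single times were chosen after seeing the data. Probes called higher at 4 h were 0 with each array's own floor, 19 with the shift, 2 with the regression on 10 arrays, 3 with the background subtracted, and 0 on the deposited scores, with at least 2 of 8 arrays above the floor, with no filter or with the spread of all 4 pairs. Probes called lower at 4 h were 4 with each array's own floor, 26 with no normalization, 59 with the shift, 47 with quantile normalization, 20 with the regression on 10 arrays, 20 with the background subtracted, and 0 on the deposited scores, with at least 2 of 8 arrays, with no filter or with the spread of all 4 pairs. At 24 h 32 were called with each array's own floor, 27 with no floor and 42 with at least 6 of 8 arrays.

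More than 3-fold higher after LPS at 4 h were 12 probes with no normalization and 21 with quantile normalization, and 27 were lower with no normalization. After LPS at 24 h 213 were higher with each array's own floor, 262 with no floor, 46 with the shift and 116 with quantile normalization, and 14 were lower with no normalization and 20 with the shift. After SP at 4 h 16 were higher with each array's own floor, 20 with no floor, 68 with no normalization and 15 with quantile normalization. After SP at 24 h 278 were higher with no normalization, and 0 were lower with no normalization and 20 with the shift. In all 4 pairs 478 probes were higher with no normalization, 115 with the shift and 322 with quantile normalization, and 2 were lower with no normalization. The difference of Cpa3 turned to 0.78 with no normalization, 0.14 with the shift, 0.38 with quantile normalization and 0.12 with the background subtracted. On the deposited scores, whose unit differs, it turned to 0.24, and the cause was not tested. Differences over 4 pairs were refitted for 26 probes, and the others of these kept their direction. The remaining named genes were not refitted one by one. Of the values for genes at 4 h, 235 stayed past the threshold and 219 did not, and none turned.

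Over 7 other schemes of floor, normalization and background, r of the LPS with the SP difference was 0.471 to 0.516 at 4 h and 0.304 to 0.408 at 24 h, and between the times it was at most 0.223, with no normalization.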
